A study of Rattus norvegicus with 6 samples.

Results

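Solute carriers are membrane proteins that move amino acids, ions, metals, sugars, vitamins and other small molecules across the plasma membrane and the membranes of organelles. The set described here holds every gene of the array whose symbol has the form of a solute carrier (Slc, a family number, a letter and a member number). The mitochondrial Slc25 family and 4 genes of glucose, lactate and serine transport (Slc1a4, Slc2a1, Slc2a3 and Slc16a3) were left out. By this rule there were 250 genes of 14217 with a probe set of their own, measured by 337 probe sets of 31042. A probe set is a group of short probes for 1 transcript, and each gene is represented by the probe set with the highest mean over the 6 arrays. The rule took in carriers of all substrates, not of amino acids and ions alone. There were 42 genes for amino acids and peptides, 30 for protons, bicarbonate and chloride, 28 for metal ions and 8 for sodium-calcium exchange. A further 140 genes belonged to 8 classes of other substrates, the largest of them the 33 carriers of neurotransmitters, amines and osmolytes. The remaining 2 genes, Slc4a1ap and Slc7a6os, match the pattern by name only and are not transporters. Each family was placed whole in 1 class, so the amino acid carriers of the Slc6 family count with the neurotransmitter carriers.

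The study compared rat flat pluripotent stem (fPS) cells with rat embryonic stem (ES) cells, both from the Sprague-Dawley strain, with 3 arrays in each group. Per the labels, both kinds of cell received the same protocols: a medium with human LIF, the GSK3 inhibitor CHIR99021 and the MEK inhibitor PD0325901, and maintenance on mitomycin C-treated mouse embryonic fibroblasts with serum. Colonies were taken off by hand and total RNA was hybridised to Affymetrix 3' arrays. The labels give neither how the fPS cells arose, nor the line or passage of either kind, nor whether the arrays of a group came from separate cultures, and their description field calls the fPS samples embryonic stem cells too.

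The 6 arrays had median intensities between 36.2 and 45.3. Pearson's r of log2 values over all probe sets was 0.956 to 0.972 within groups and 0.932 to 0.961 between them, so single pairs overlapped. Markers of pluripotent cells were present in both groups: of 16 listed, 10 were measured and 0 passed the adjusted threshold in limma, while before adjustment 0 were higher and 2 lower at p under 0.05, and 3 had a positive sign. Those 2 were Lin28a, at 481 ± 167 in fPS and 1200 ± 348 in ES cells, and Sox2, at 1990 ± 787 in fPS and 3770 ± 738 in ES cells (SD, n = 3 each), both with all fPS arrays below the ES arrays. Of 21 markers of feeder fibroblasts, all were measured. Their summed intensity was 3990 to 5118 on the fPS arrays and 2724 to 4464 on the ES arrays. Much of it came from Timp1, the brightest, with 2080, 2358 and 1404 in fPS and 2106, 1722 and 590 in ES cells. The mean log2 value of the 21 was 6.50, 6.42 and 7.02 on fPS arrays. On ES arrays it was 5.66, 6.04 and 6.97, so replicate 3 was highest in both groups. Of the 21, 0 passed the adjusted threshold in limma, with 4 higher and 1 lower at p under 0.05 before adjustment. Summed markers of endoderm (10 of 10 measured) lay at 567 to 643 on fPS and 219 to 290 on ES arrays, with no overlap, and 7 of the 10 were higher at an unadjusted p under 0.05 while 0 passed the adjusted threshold (limma). Of these, Sox17, an endoderm transcription factor, had 269.5, 214 and 192 in fPS cells, against 52.04, 63.8 and 109.6 in ES cells. Gata4, Foxa2, Cubn and Ttr also had all fPS arrays above the ES arrays. Cubn had 68.1 ± 18.2 in fPS and 14.8 ± 9.81 in ES cells. Dab2 and Apob were higher at that p with overlapping groups. Afp, a product of visceral endoderm, and Apoa1 had a negative sign and were dim. Afp had 8.62 ± 2.65 in fPS and 12.1 ± 11.1 in ES cells. Neural markers (10 of 10 measured) summed to 375 to 707 on fPS arrays and 803 to 958 on ES arrays. Without Tubb3, the brightest of them, the other 9 summed to 208 to 273 on fPS and 221 to 269 on ES arrays, which overlapped. Tubb3 itself had 305 ± 134 in fPS and 608 ± 84.7 in ES cells. Of the 10 neural markers, 6 had a positive sign and 0 passed the adjusted threshold in limma. Before adjustment 1 was higher (Pax6) and 2 lower (Tubb3 and Sox11) at p under 0.05. Sox11 had 20.5 ± 4.95 in fPS and 69.9 ± 19.2 in ES cells. Tubb3, Sox11 and Map2 lay fully below ES cells, and Pax6 and Gfap fully above. Over all genes, 8.59% were higher and 8.88% lower at that p. The part of such cells in the solute carrier values was not tested, and in bulk RNA a change in the share of a cell type cannot be told apart from a change in RNA per cell.

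Amino acid carriers set the supply of building blocks for growth. Carriers of the Slc7 family either take up arginine and lysine on their own (Slc7a1 and Slc7a3) or form a pair with the heavy chain Slc3a2 at the cell surface and exchange neutral or basic amino acids (Slc7a5, Slc7a6, Slc7a7 and Slc7a8). Pluripotent cells depend on several amino acids for self-renewal, and sodium-, proton- and chloride-coupled carriers use ion gradients that also set cell volume and pH.

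Promoter sequences of RefSeq (rat assembly GRCr8, 250 bases before the annotated start to 50 after it) were matched for 205 of the 250 genes, by gene identifier. The promoters of Slc7a1, Slc7a5, Slc7a6 and Slc7a7 are shown because each gene read lower on every fPS array than on any ES array. Slc7a3 did so too, but no promoter was matched for it, so it was not searched. The promoter of Slc30a2 is shown because both of its probe sets passed the test in the other direction. Capitals mark matches to any of 4 motifs searched on both strands: TGATGNAA, the composite element of ATF4 and C/EBP factors, TGANTCA, an AP-1 site, CACGTG, an E-box, and TGACNNNGC, the core of the antioxidant response element.
Slc7a1, chr12:11664238-11664537 on the plus strand: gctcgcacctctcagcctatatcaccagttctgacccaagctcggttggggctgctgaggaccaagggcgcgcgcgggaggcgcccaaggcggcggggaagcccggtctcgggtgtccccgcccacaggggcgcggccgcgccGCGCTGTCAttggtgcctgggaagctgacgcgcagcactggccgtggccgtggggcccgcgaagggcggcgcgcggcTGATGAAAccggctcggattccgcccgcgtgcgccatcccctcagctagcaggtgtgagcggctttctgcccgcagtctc
Slc7a5, chr19:66872363-66872662 on the minus strand: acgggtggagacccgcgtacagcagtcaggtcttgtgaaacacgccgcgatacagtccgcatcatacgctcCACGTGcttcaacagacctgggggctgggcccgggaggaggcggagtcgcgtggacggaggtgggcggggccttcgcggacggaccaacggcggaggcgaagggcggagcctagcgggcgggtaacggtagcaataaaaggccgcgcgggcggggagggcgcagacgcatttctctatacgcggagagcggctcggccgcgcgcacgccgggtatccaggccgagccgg
Slc7a6, chr19:50993256-50993555 on the plus strand: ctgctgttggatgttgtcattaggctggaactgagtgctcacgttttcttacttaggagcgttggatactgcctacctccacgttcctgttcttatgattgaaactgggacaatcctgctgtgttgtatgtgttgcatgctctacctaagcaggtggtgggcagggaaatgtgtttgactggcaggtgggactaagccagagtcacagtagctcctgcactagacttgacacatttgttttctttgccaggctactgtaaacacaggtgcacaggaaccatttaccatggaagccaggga
Slc7a7, chr15:31835634-31835933 on the minus strand: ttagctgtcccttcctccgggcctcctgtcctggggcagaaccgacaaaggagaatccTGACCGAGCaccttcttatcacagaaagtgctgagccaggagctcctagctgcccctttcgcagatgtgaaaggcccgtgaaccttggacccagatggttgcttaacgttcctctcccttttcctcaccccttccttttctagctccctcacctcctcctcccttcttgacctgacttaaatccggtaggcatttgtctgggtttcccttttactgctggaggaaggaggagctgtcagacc
Slc30a2, the first of 2 annotated starts, chr5:151843201-151843500 on the plus strand: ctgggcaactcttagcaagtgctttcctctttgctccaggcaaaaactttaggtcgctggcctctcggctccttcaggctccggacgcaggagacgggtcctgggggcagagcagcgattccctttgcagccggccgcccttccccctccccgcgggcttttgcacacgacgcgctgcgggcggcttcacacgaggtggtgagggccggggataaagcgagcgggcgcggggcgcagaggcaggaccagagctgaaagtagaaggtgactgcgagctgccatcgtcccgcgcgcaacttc

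The Slc7a1 window held TGATGAAA, which began 30 bases before the start (position -30), and a reverse-strand antioxidant core at position -107. The Slc7a5 window held 1 E-box at position -179 and the Slc7a7 window 1 antioxidant core at position -192, while the Slc7a6 window and both Slc30a2 windows held none of the 4 motifs. Slc7a8, lower at an unadjusted p under 0.05 with overlapping groups, had 0 matches in its window too. Over all 33469 promoters of the table, TGATGNAA occurred in 3.98%, TGANTCA in 7.33%, CACGTG in 6.42% and TGACNNNGC in 12.1%. Among the 219 promoters of solute carriers the shares were 2.74%, 9.13%, 12.3% and 17.8% in the same order. These matches describe letters in the windows, and no binding was measured.

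Of the 250 genes, 3 rose and 1 fell in fPS cells at an adjusted p under 0.05 (limma, Benjamini-Hochberg over all 31042 probe sets). That is a share of 1.6%, against 0.858% of all 14217 genes (0.57% higher and 0.288% lower). All values were compared as log2(intensity + 16), a scale that understates the change of dim probe sets. The 3 that rose were the zinc exporter Slc30a2, the nucleotide sugar transporter relative Slc35e4 and the glutamine transporter Slc38a3, and the 1 that fell was Slc16a9, a relative of the monocarboxylate transporters.

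Slc30a2, which loads zinc into vesicles and is known from the mammary gland, read 164, 290 and 245 on the fPS arrays, against 59.2, 68.5 and 59.6 on the ES arrays (Entrez gene 25362, chromosome 5). All fPS arrays were above all ES arrays, and the lowest fPS array was more than 2-fold above the highest ES array. The log2 difference was 1.63 (SE 0.244, adjusted p = 0.0367, limma). The other of its 2 probe sets also passed, with a log2 difference of 1.92 (adjusted p = 0.0332, limma).

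Slc35e4, a member of the family that carries nucleotide sugars into the Golgi apparatus and endoplasmic reticulum, read 150, 158 and 174 in fPS cells, against 56.3, 41.9 and 45.1 in ES cells (Entrez gene 266687, chromosome 14). The replicates lay close together in both groups, and the log2 difference was 1.48 (SE 0.201, adjusted p = 0.0332, limma). Slc38a3, a sodium-coupled carrier of glutamine, histidine and asparagine known from liver, kidney and brain, read 192, 266 and 242 in fPS cells, against 71.5, 89.2 and 96.3 in ES cells (Entrez gene 252919, chromosome 8). It rose by 1.29 on the log2 scale (SE 0.219, adjusted p = 0.0438, limma), again with no overlap between the groups.

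Slc16a9, linked in human to the export of carnitine, read 86.0, 55.8 and 63.8 in fPS cells, against 256, 206 and 370 in ES cells (Entrez gene 687808, chromosome 20). It fell by 1.77 on the log2 scale (SE 0.265, adjusted p = 0.0367, limma), with all fPS arrays below all ES arrays. Slc35e4, Slc38a3 and Slc16a9 each had 1 probe set.

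**Figure D1:**
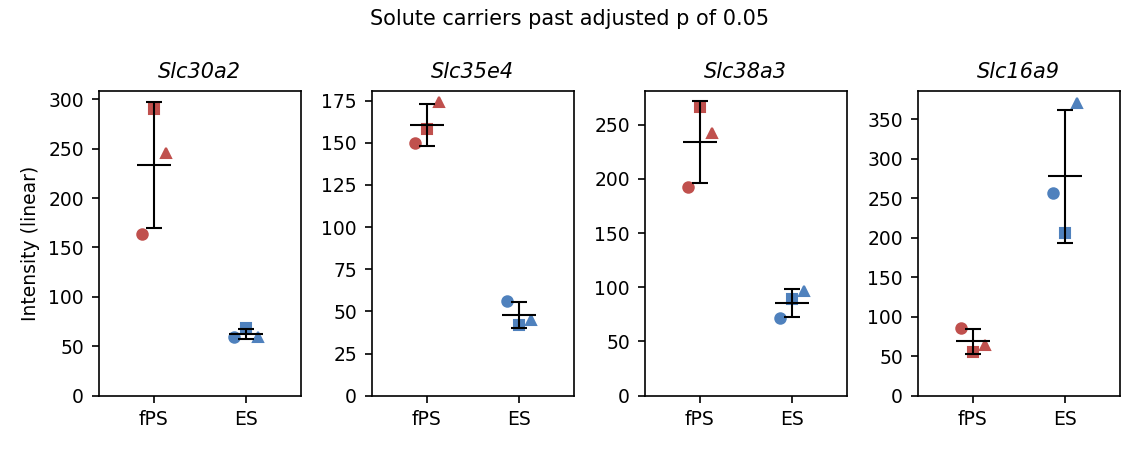
Linear intensity of the 4 solute carriers past the adjusted threshold, fPS left and ES right in each panel; circle, square and triangle are replicates 1, 2 and 3, and the black line and bars are the mean ± SD of 3 arrays. Slc30a2, Slc35e4 and Slc38a3 have all fPS arrays above all ES arrays, and Slc16a9 has all fPS arrays below.

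The adjusted calls changed with the arrays and the pseudocount. All 4 were lost when any one of ES replicate 1, 2 or 3 or fPS replicate 2 or 3 was left out. Adjusted p then lay between 0.0686 and 0.218 (limma). Slc38a3 was also lost without fPS replicate 1 (adjusted p = 0.0546, limma). Of all 14217 genes, 122 passed in the main fit, 93 without fPS replicate 1 and 0 to 19 without any one other array. Without ES replicate 3 and fPS replicate 3 together, 0 solute carriers passed in limma. At p under 0.05 before adjustment 38 were higher and 12 lower. Of all genes 0 passed there too, and 2329 had such a p. The arrays left out had the highest summed fibroblast markers of their group. With a pseudocount of 1 also 0 solute carriers and 0 of all genes passed. At p under 0.05 before adjustment 31 solute carriers were higher and 14 lower, beside 1831 of all genes either way. With a pseudocount of 64, Slc35e4 passed (adjusted p = 0.0437) and the other 3 did not (0.0553 to 0.056, limma), while 26 of all genes passed. The log2 differences of the 4 genes kept their sign in each of these fits and ran over the alternatives from 1.21 to 1.85 for Slc30a2, from 1.01 to 1.74 for Slc35e4, from 0.99 to 1.44 for Slc38a3 and from -1.98 to -1.34 for Slc16a9.

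Before adjustment, 32 solute carriers were higher and 18 lower in fPS cells at p under 0.05, or 12.8% and 7.2%, against 8.59% and 8.88% of all genes. Together these 50 were 20% of the set, near the 17.5% of all genes. The groups did not overlap in 25.6% of the solute carriers, against 22.6% of all genes. In 42 genes every fPS array exceeded every ES array and in 22 the reverse held, 16.8% and 8.8%, against 11.3% of all genes each way. Shares by brightness were as follows. Of the 173 genes with a mean intensity under 100, 58.4% had a positive sign, against 59.4% of all such genes, and 15.0% lay fully above and 5.2% fully below ES cells, against 11.6% and 5.66%. Of the 69 genes between 100 and 1000, 26.1% had an unadjusted p under 0.05, against 23.2% of all such genes, and 21.7% lay fully above and 14.5% fully below, against 11.9% and 17.2%. Of the 8 brighter genes, 4 had such a p, against 15.1% of all such genes, 1 lay fully above and 3 fully below, against 6.8% and 18.1%. The median log2 difference was 0.050 over the set and 0.00 over all genes.

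In the amino acid and peptide class, 8 genes were lower in fPS cells at p under 0.05 before adjustment, and 6 of them belonged to the Slc7 family. The glycine transporter Slc6a9, lower at that p too, was counted in the neurotransmitter class. Of the 14 measured Slc7 members, 0 passed the adjusted threshold in limma, 6 were lower and 0 higher at that unadjusted p, and 12 had a negative sign. In all genes 8.88% were lower at that p. The family's median log2 difference was -0.27. The family was singled out after its values were seen.

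Slc7a3, the arginine and lysine transporter CAT3, read 1401, 814 and 370 on the fPS arrays, against 3155, 2939 and 4219 on the ES arrays (Entrez gene 29485, chromosome X). The fPS arrays differed from each other by more than 3-fold and yet all lay below the lowest ES array. The log2 difference was -2.15 (SE 0.428), the most negative of the set, and did not pass (adjusted p = 0.0602, limma). It passed in 5 of 16 alternatives, among them arrays centred on their median (adjusted p = 0.0325) and without fPS replicate 1 (log2 difference -2.59, adjusted p = 0.0433), within a range of 0.0113 to 0.231 (limma).

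Slc7a1, the widely expressed arginine and lysine transporter CAT1 whose promoter is shown above, read 1106, 631 and 612.5 in fPS cells, against 2395, 1852 and 2539 in ES cells (Entrez gene 25648, chromosome 12). No fPS array came near the ES arrays, and the log2 difference of -1.55 (SE 0.279) lay just short of the threshold (adjusted p = 0.0504, limma). It passed in 6 of 16 alternatives, with adjusted p from 0.011 to 0.231 (limma). A second probe set read lower as well (log2 difference -1.08, adjusted p = 0.121, limma), while the dimmest of its 3 probe sets, with a mean of 20.9, had a difference of 0.0090.

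Of the light chains that pair with Slc3a2, Slc7a5, Slc7a6, Slc7a7 and Slc7a8 were lower at an unadjusted p under 0.05. Slc7a6, an exchanger of basic for neutral amino acids, had 998, 743 and 721 in fPS cells, against 1830, 1262 and 1676 in ES cells (log2 difference -0.94, adjusted p = 0.108, limma). Slc7a5, the leucine and large neutral amino acid transporter LAT1, had 892, 737 and 547.5 in fPS cells, against 1037, 983 and 1662 in ES cells (log2 difference -0.73, adjusted p = 0.258, limma). Neither gene passed, although the groups did not overlap in either.

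Slc7a7, a further exchanger of basic amino acids, had 125.7 ± 45.9 in fPS and 313 ± 90.3 in ES cells, without overlap (log2 difference -1.23, adjusted p = 0.0979, limma). For Slc7a8, the neutral amino acid exchanger LAT2, the groups overlapped, with 75.8, 13.04 and 42.3 in fPS cells against 172, 88.7 and 55.7 in ES cells. Their heavy chain Slc3a2 stood at 2999 ± 233 in fPS and 3518 ± 683 in ES cells, a log2 difference of -0.22 with SE 0.218 (adjusted p = 0.712, limma). The light chains Slc7a10 and Slc7a11 overlapped, with log2 differences of 0.41 and -0.21. Together with these, the other 8 Slc7 genes had log2 differences between -0.33 and 0.41 and unadjusted p of 0.05 or more.

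**Figure D2:**
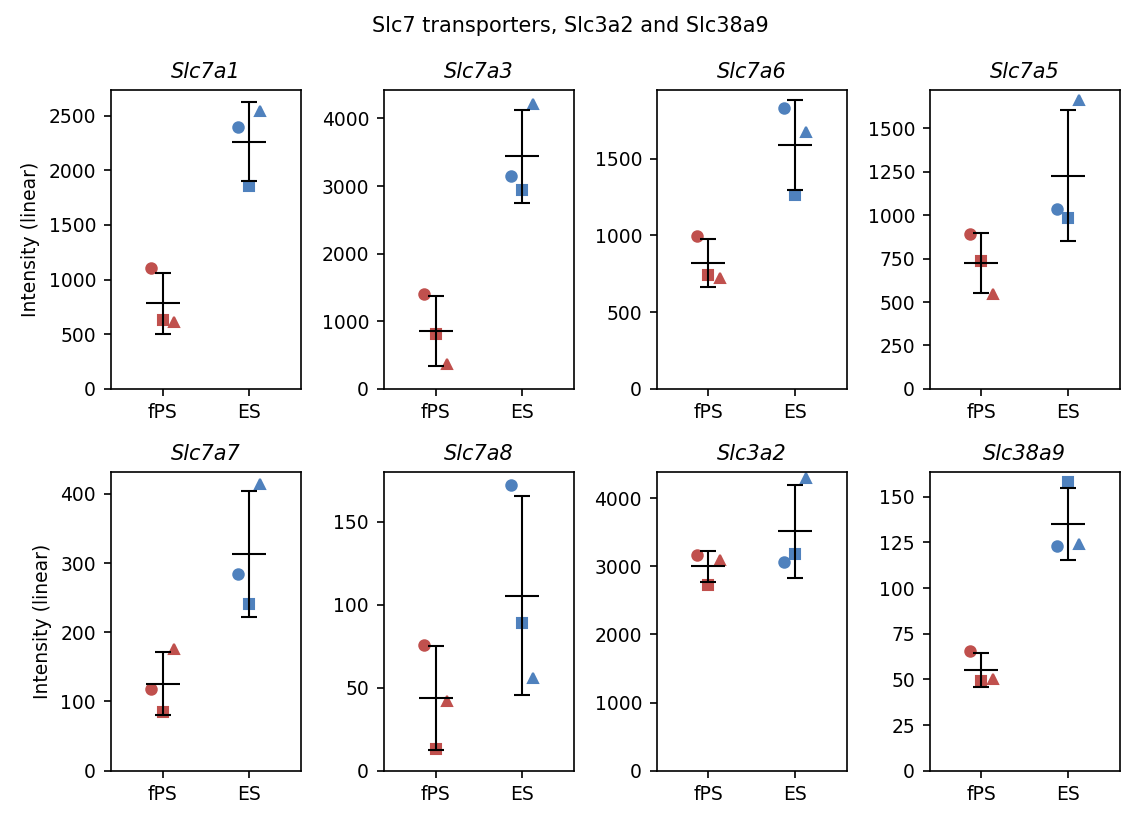
Linear intensity on fPS (left) and ES (right) arrays for 6 Slc7 genes, the heavy chain Slc3a2 and Slc38a9. Circle, square and triangle are replicates 1, 2 and 3, and the black line and bars are the mean ± SD of 3 arrays. The groups do not overlap for Slc7a1, Slc7a3, Slc7a5, Slc7a6, Slc7a7 and Slc38a9, while Slc7a8 and Slc3a2 overlap; none passed the adjusted threshold.

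Outside Slc7, amino acid carriers went both ways. Slc38a9, which senses lysosomal arginine for mTORC1, read 65.8, 49.2 and 50.2 in fPS cells, against 123, 158 and 124 in ES cells (log2 difference -1.09, SE 0.212, adjusted p = 0.0578, limma). Slc1a5, the glutamine exchanger ASCT2, read 385, 357 and 415 in fPS cells, against 575, 709 and 1069 in ES cells (log2 difference -0.95, adjusted p = 0.131, limma). Both had all fPS arrays below all ES arrays and did not pass, in contrast to Slc38a3 of the same class, which rose.

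The probe sets of the glutamine carrier Slc38a1 disagreed. Its brightest had 893 ± 380 in fPS and 626 ± 147 in ES cells, with overlap. The other 2 had every fPS array below the ES arrays, the brighter of them at 138.9 ± 15.8 in fPS and 381 ± 119 in ES cells (log2 difference -1.31, adjusted p = 0.0672, limma). The glutamine carrier Slc38a2 overlapped, with 399.8 ± 89.7 in fPS and 625 ± 265 in ES cells. Over the 42 genes of the amino acid and peptide class, 1 rose and 0 fell at the adjusted threshold, and the median log2 difference was -0.058. Before adjustment 2 were higher and 8 lower at p under 0.05, or 4.76% and 19%, against 8.59% and 8.88% of all genes.

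Carriers of protons, bicarbonate and chloride regulate pH and cell volume. Of 30 measured, 0 passed the adjusted threshold in limma, and the median log2 difference was 0.11. Before adjustment 5 were higher and 1 lower at p under 0.05, or 16.7% and 3.33%, against 8.59% and 8.88% of all genes. Slc12a7, a potassium-chloride cotransporter, read 432, 566 and 436.5 in fPS cells, against 218, 342 and 341 in ES cells (log2 difference 0.66, adjusted p = 0.247, limma). Slc4a7, a sodium-bicarbonate cotransporter, went the other way, with 581, 502 and 430 in fPS cells against 686, 787 and 667 in ES cells (log2 difference -0.49, adjusted p = 0.305, limma). The groups did not overlap in either gene, and the other probe set of Slc4a7, which was dim, had the opposite sign. Of 8 sodium-calcium exchangers, 0 passed, 0 had an unadjusted p under 0.05 and 7 had a positive sign. A positive sign was found in 50% of all genes and in 59.4% of those with a mean intensity under 100. Slc8b1, the mitochondrial member, was at 177 ± 26.9 in fPS and 127.6 ± 21.96 in ES cells, with overlap.

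Among 28 metal ion carriers, Slc30a2 was the 1 that passed. Before adjustment 4 were higher and 1 lower at p under 0.05, or 14.3% and 3.57%, against 8.59% and 8.88% of all genes. Of the 28, 8 lay fully above and 3 fully below ES cells, or 28.6% and 10.7%, against 11.3% of all genes each way. Slc41a1, a magnesium transporter, read 130, 204.5 and 219 in fPS cells, against 56.6, 86.5 and 92.6 in ES cells (log2 difference 1.08, adjusted p = 0.102, limma). Slc39a6, a zinc importer, read 138, 91.0 and 96.8 in fPS cells, against 270, 154 and 250 in ES cells (log2 difference -0.93, adjusted p = 0.148, limma). Every fPS array was above the ES arrays for Slc41a1 and below them for Slc39a6, and neither gene passed. For Slc39a6, 1 of the other 2 probe sets had a difference of 0.0094. The zinc importer Slc39a1 overlapped, with 843 ± 281 in fPS and 891.6 ± 103 in ES cells. Among zinc exporters (Slc30), 7 of 9 had a positive sign, and among zinc importers (Slc39), 5 of 12, against 50% of all genes. At p under 0.05 before adjustment, 2 of the exporters were higher and 1 of the importers lower.

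Phosphate, sulfate and carboxylate carriers numbered 10, of which 0 passed in limma. Before adjustment 1 was higher and 1 lower at p under 0.05, or 10% each, against 8.59% and 8.88% of all genes. Slc20a1, the sodium-phosphate cotransporter that supplies most cells, read 6911, 9460 and 8833 in fPS cells, against 4053, 6092 and 7116 in ES cells (log2 difference 0.57, SE 0.265, adjusted p = 0.352, limma). The groups overlapped, since ES replicate 3 exceeded fPS replicate 1. Slc34a2, the epithelial sodium-phosphate cotransporter, was dim, with 52.5, 53.7 and 34.9 in fPS cells against 3.61, 14.7 and 10.6 in ES cells. Its log2 difference of 1.31 did not pass (adjusted p = 0.0549, limma).

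The class of sugars and the sodium-glucose family, with 21 genes, took in the whole Slc5 family and so not sugar carriers alone. It had 0 adjusted calls in limma. Before adjustment 6 were higher and 0 lower at p under 0.05, or 28.6% and 0%, against 8.59% and 8.88% of all genes. Of the 6, 2 were Slc5 members, Slc5a3 and Slc5a12. Slc50a1, a sugar efflux transporter, read 2547, 2361 and 2916 in fPS cells, against 1294, 2084 and 1771 in ES cells, without overlap (log2 difference 0.62, adjusted p = 0.257, limma). Slc2a4, the insulin-regulated glucose transporter, had the highest difference of the set and was dim, with 57.9, 70.2 and 136 in fPS cells against 2.41, 23.6 and 25.7 in ES cells (log2 difference 1.67, SE 0.384, adjusted p = 0.0897, limma). Its probe set has the suffix _a_at, which was counted here with the unspecific ones, as was that of Slc7a5. Without it the difference for Slc2a4, from the other probe set, was -0.166 (adjusted p = 0.836, limma). Of 8 monocarboxylate transporters, Slc16a9 was the 1 call. The lactate and pyruvate carrier Slc16a1 had 1473, 1600 and 1306 in fPS cells, against 1005, 849 and 1741 in ES cells, where ES replicate 3 was above every fPS array (log2 difference 0.35, adjusted p = 0.633, limma).

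Nucleoside and nucleotide sugar carriers numbered 28, with Slc35e4 as the 1 call. Before adjustment 3 were higher and 2 lower at p under 0.05, or 10.7% and 7.14%, near the 8.59% and 8.88% of all genes. Slc29a1, the equilibrative nucleoside transporter ENT1, read 162, 165 and 385 in fPS cells, against 68.8, 90.4 and 62.6 in ES cells (log2 difference 1.39, SE 0.334, adjusted p = 0.0944, limma). All fPS arrays were higher, with fPS replicate 3 far above the others. Slc35e3 read 218, 169 and 98.1 in fPS cells, against 318, 239 and 391 in ES cells (log2 difference -0.94, adjusted p = 0.194, limma), and its second probe set had a difference of -0.86. Slc35b1, a carrier of the endoplasmic reticulum, overlapped, with 732 ± 157 in fPS and 831 ± 274 in ES cells.

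Of 33 carriers of neurotransmitters, amines and osmolytes, 0 passed in limma. Before adjustment 4 were higher and 1 lower at p under 0.05, or 12.1% and 3.03%, against 8.59% and 8.88% of all genes. Slc6a8, the creatine transporter, read 413, 530 and 522 in fPS cells, against 243, 278 and 348.5 in ES cells (log2 difference 0.73, adjusted p = 0.171, limma). Its second probe set gave 0.93 (adjusted p = 0.0981, limma), so both were higher in fPS cells on all arrays without passing. Slc6a9, a glycine transporter, was dim, with 22.5 ± 3.88 in fPS and 68.5 ± 18.7 in ES cells (log2 difference -1.11, adjusted p = 0.0685, limma). Its other probe sets overlapped between the groups, with log2 differences of -0.22 and -0.48. Slc17a5, the lysosomal sialic acid exporter, overlapped, with 1150.0 ± 209 in fPS and 932 ± 164 in ES cells.

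Vitamin and heme carriers held 12 genes, of which 0 passed in limma. Before adjustment 3 were higher and 2 lower at p under 0.05, or 25% and 16.7%, against 8.59% and 8.88% of all genes. Slc19a2, a thiamine transporter, read 96.8, 160.0 and 202 in fPS cells, against 51.5, 48.03 and 29.3 in ES cells (log2 difference 1.49, SE 0.293, adjusted p = 0.0587, limma). Slc49a4, a lysosomal membrane protein, read 471, 305 and 317 in fPS cells, against 660.5, 726 and 793.5 in ES cells (log2 difference -0.99, SE 0.233, adjusted p = 0.0919, limma). The groups were apart in both genes. Slc48a1, a heme transporter, had 193 ± 17.2 in fPS and 123 ± 20.4 in ES cells (log2 difference 0.60, adjusted p = 0.221, limma).

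The 11 lipid, bile acid and acyl group carriers and the 17 carriers of organic ions and drugs had 0 adjusted calls in limma. At p under 0.05 before adjustment, 2 of the 11 were higher and 0 lower, or 18.2% and 0%. Among the 17, 1 was higher and 1 lower, or 5.88% each, against 8.59% and 8.88% of all genes. Slc33a1, which brings acetyl-CoA into the endoplasmic reticulum, had 478 ± 34.2 in fPS and 506 ± 150.1 in ES cells. Slc22a5, the carnitine importer, had 280.1 ± 118 in fPS and 235 ± 77.5 in ES cells. Both overlapped between the groups.

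**Figure D3:**
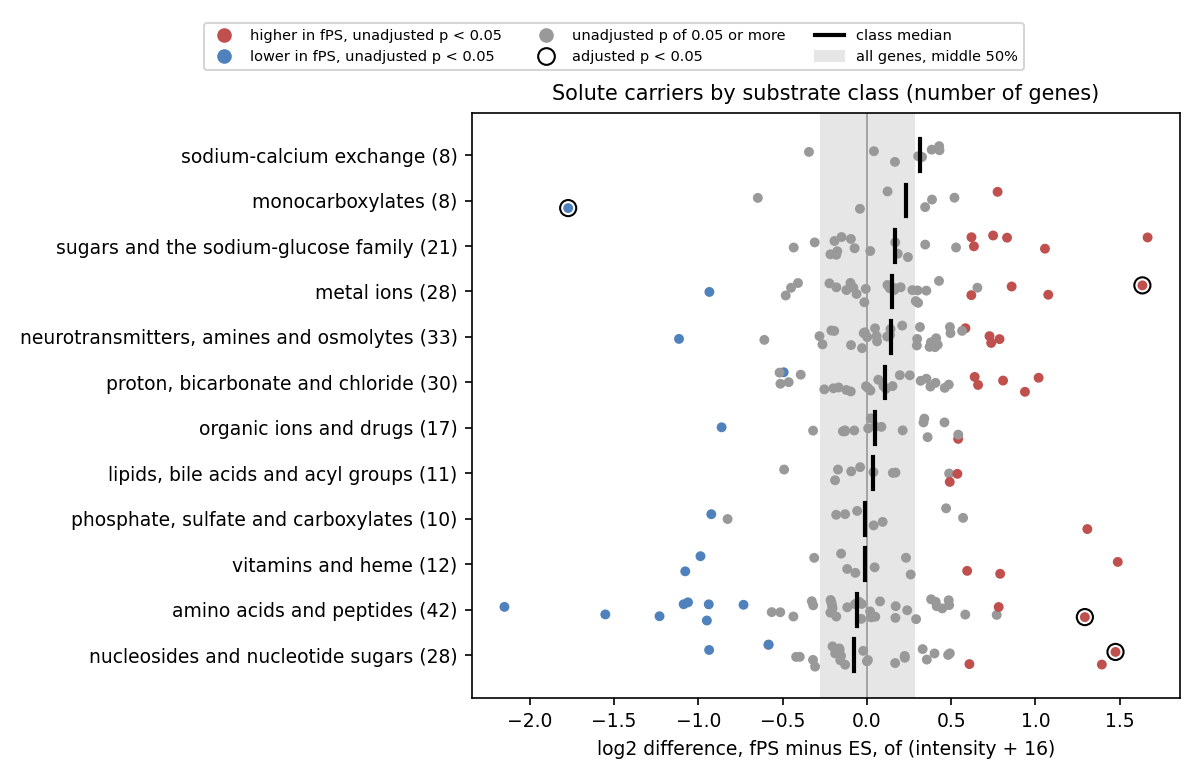
Log2 difference (fPS minus ES) of (intensity + 16) for each solute carrier, by substrate class with the number of genes; 1 point is 1 gene, the black bar is the class median, the grey band is the middle 50% of all genes and open circles mark the 4 genes past the adjusted threshold. The medians of 11 classes lie inside the grey band and that of sodium-calcium exchange, 0.32, just outside it, while single genes reach from -2.15 to 1.67.

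Partners and regulators of these carriers gave no adjusted call. Of 36 listed, 30 were measured and 0 passed in limma, with a median log2 difference of 0.0050. Before adjustment 3 were higher and 4 lower at p under 0.05, where 8.59% of all genes were higher and 8.88% lower. Basigin (Bsg), which brings monocarboxylate transporters to the cell surface, had 4280 ± 850 in fPS and 3880 ± 204 in ES cells. The transferrin receptor Tfrc had 1830 ± 693 in fPS and 3020 ± 412 in ES cells, and the sodium pump subunit Atp1b1 had 1850 ± 38.3 in fPS and 1470 ± 598 in ES cells. None of these differences passed (adjusted p = 0.862, 0.238 and 0.571, limma).

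**Figure D4:**
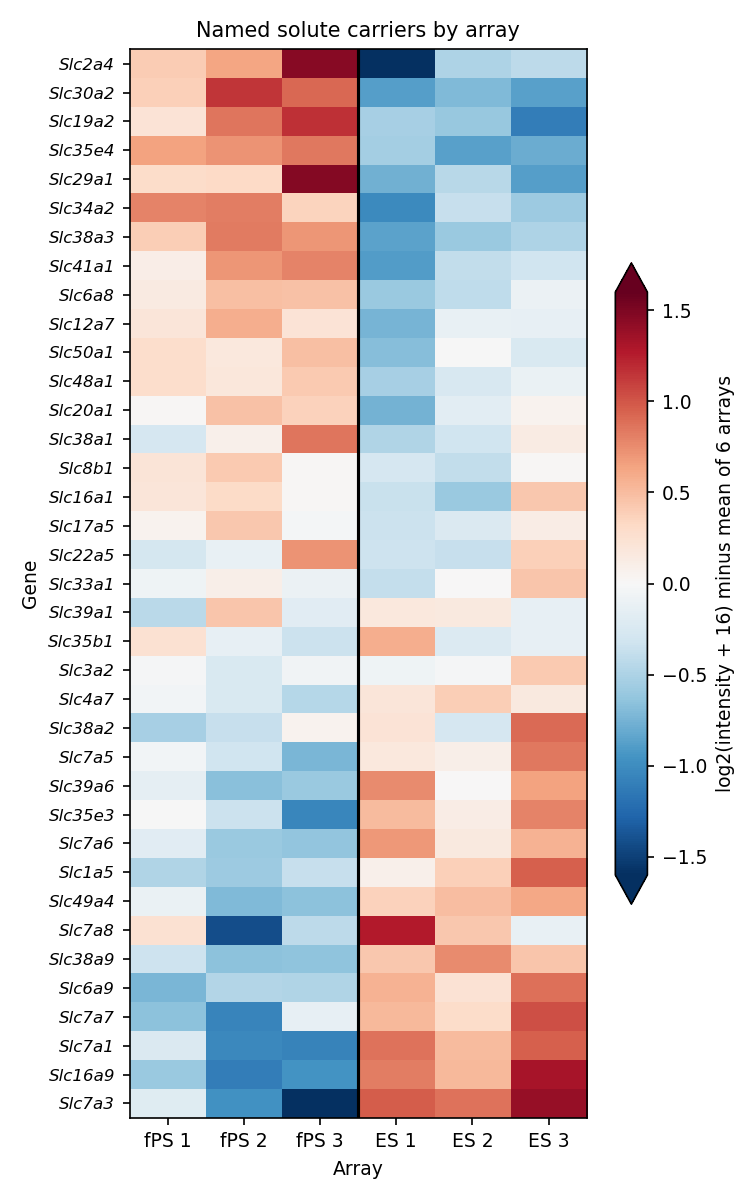
Heat map of 37 of the solute carriers named in the text (rows, ordered by log2 difference) on the 3 fPS arrays (left) and the 3 ES arrays (right). Colour is log2(intensity + 16) minus the gene's mean over the 6 arrays. Slc2a4 stands at the top and Slc7a3 at the bottom, and fPS replicate 3 is highest for Slc29a1 and lowest for Slc7a3.

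Agreement between probe sets was limited. More than 1 probe set measured 65 of the 250 genes, and for 29 of them every probe set differed in the same direction. The number of arrays limited the precision of every value, and a gene that did not pass may still differ by 2-fold. In simulated arrays of this size limma recovered 5.2% of 2-fold and 81.2% of 4-fold changes. These shares hold for simulations with few changed probe sets and need not hold for the real arrays.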

How the data were processed

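Each of 6 RNA samples gave biotinylated cRNA for 1 Affymetrix 3' array, per the labels' protocols. The authors deposited linear intensity values, 1 per probe set and array. How they summarised probes, corrected background and scaled arrays is not given in the sources used here, and 0 other columns per sample were present. From the table of 31099 probe sets, 57 controls were left out. Genes came from the platform annotation (20826 probe sets with 1 symbol, 436 with several, which were given no name, and 9780 with none), and the identifiers of all 250 solute carriers were found in RefSeq's GRCr8 gene table, with 0 changed symbols. Values were analysed as log2(intensity + 16) with limma 3.58.1 in R 4.3.3 (lmFit, eBayes), fPS minus ES, adjusted over 31042 probe sets at 0.05, without further normalization or a filter on low values. Of the 250 genes, 77 had a mean intensity of at least 100.

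The fit was tested on 10 simulated data sets of 31042 probe sets, where 5.05% of calls were false. Their noise was normal, with variances drawn from the fit's own model, and few probe sets were changed. A false share near the threshold was therefore built in, and it does not measure false calls on the real arrays. The p-values reflect the spread among these arrays alone, and that spread may be technical. Same-numbered arrays were checked for pairing: their deviations from the group mean correlated at 0.151, 0.0200 and 0.0748, so the numbers were not taken to pair samples.

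The rule for named genes took every call, up to 3 genes per substrate class with the largest difference among those without overlap, with an unadjusted p under 0.05 and a mean intensity of at least 100, the gene of highest signal per class, and the 10 of highest signal in all. Slc7a7, Slc7a8, Slc38a9, Slc1a5, Slc38a2, Slc38a1, Slc34a2, Slc19a2, Slc6a9, Slc2a4, Slc7a10 and Slc7a11 were chosen after their values were seen. The members and lists were chosen with earlier results of these data known. Plots used matplotlib 3.10.9 (Python 3.11.15). Probe sets with the suffix _s_at, _x_at or _a_at were counted as unspecific. The alternatives were 2 normalizations, pseudocounts of 1 and 64, leaving out the dimmest 30% of probe sets, trended and robust variance, a block for the replicate number, averaging the probe sets of a gene, leaving out unspecific probe sets, and leaving out single arrays or the third replicate of both groups.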

Additional observations from a re-analysis of the deposited data

How the results depend on the processing

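The number of solute carriers past the adjusted threshold was small and moved with most settings. Against 3 higher and 1 lower, limma gave 0 and 0 with a pseudocount of 1, with the replicate block, and with the third replicate of both groups left out, 1 and 0 with a pseudocount of 64, 5 and 3 with the mean over probe sets, 7 and 4 with the trend and robust settings, and 7 and 6 without the dimmest 30% of probe sets, where fewer probe sets were tested. The lower count was 4 with centred arrays, 2 after quantile normalization and 2 without unspecific probe sets. Over all genes, 122 passed in the main fit, 0 with a pseudocount of 1 and 0 without the third replicates. The same count was 26 with a pseudocount of 64, 64 with the replicate block and 358 with the trend and robust settings. Without the dimmest 30% it was 416 of 11383 genes. It was 203 with centred arrays, 181 after quantile normalization and 155 without unspecific probe sets. Without single arrays both counts of solute carriers ran from 0 to 3, and 0 to 93 of all genes passed. Counts of solute carriers at an unadjusted p under 0.05 ran without single arrays from 21 to 39 higher and from 12 to 24 lower. Of all genes 1615 to 2625 had such a p, against 2484 in the main fit. With the replicate block 31 solute carriers were higher and 17 lower at that p, beside 2410 of all genes either way. The cause of the other moves was not tested.

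Of the named genes, Slc33a1 (0.206, 0.063, 0.077 and 0.172 without the third replicates, with the mean over probe sets, after quantile normalization and without ES replicate 3), Slc39a1 (0.023 after quantile normalization and 0.066 without fPS replicate 1), Slc35b1 (0.011 with the mean over probe sets and 0.098 without ES replicate 1), Slc22a5 (-0.095 without fPS replicate 3), Slc38a1 (-0.478 with the mean over probe sets) and Slc2a4 (-0.166 without unspecific probe sets) changed sign, and of these only Slc2a4 passed in any alternative run (limma, trend and robust settings, adjusted p = 0.0388, and without the dimmest probe sets, 0.0277). Without single arrays their differences ran from -0.244 to 0.172 for Slc33a1, -0.372 to 0.066 for Slc39a1, -0.313 to 0.098 for Slc35b1, -0.095 to 0.454 for Slc22a5, 0.129 to 0.693 for Slc38a1 and 1.285 to 1.876 for Slc2a4. The count of Slc7 genes with a negative sign, an alternative chosen after seeing the data, ran from 8 of 10 measured without the dimmest probe sets to 13 of 14, and those lower at an unadjusted p from 4 to 6.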
